A study of Mus musculus with 8 samples.

Results

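The 10 neuropeptide genes Sst, Npy, Vip, Cck, Tac1, Tac2, Penk, Pdyn, Pnoc and Crh were described across the cell types of the mouse hippocampus in 8 single-nucleus RNA libraries. They were chosen by gene symbol, and each matched 1 of the 30211 genes in the deposited count matrices. The animals were of the C57BL/6 strain: 3 wild-type (WT) and 3 Gsap-/- (GKO) mice at 7 months, and at 6 months 1 J20;WT and 1 J20;GKO mouse, with 1 mouse behind each library. GKO mice lost loxP-flanked exons of Gsap, which encodes γ-secretase activating protein, in all tissues after a cross to CMV-Cre mice. J20 mice carry human APP with the Swedish and Indiana mutations under the PDGFB promoter. With 1 mouse for each J20 genotype and J20 mice 1 month younger, age and J20 cannot be told apart, and J20;GKO has no replicate against J20;WT.

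Neuropeptides are made as precursors, cut by convertases, packed into dense core vesicles and released onto G protein-coupled receptors, mostly during sustained firing. In the hippocampus, different peptides mark different GABAergic interneurons, such as the somatostatin cells that contact distal dendrites, the Npy-rich neurogliaform cells, the Vip cells that inhibit other interneurons, and the Cck basket cells. Granule cells of the dentate gyrus and pyramidal cells also make some of them, among them the opioid precursors Pdyn and Penk, and granule cells are known for changes in peptide content after seizures.

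Of the 10 members, 7 have an entry in the RefSeq promoter table of GRCm38.p6. Among these 7, granule nuclei of the J20 mice lay outside the range of the other mice for Npy, Cck, Pdyn and Vip. The promoters of Npy and Cck are printed as 2 of these, with a stretch of the Sst promoter because it holds the full cAMP response element. Each runs 5′ to 3′ on the strand of the gene, and the first 2 give the 250 bases before the RefSeq start. Capitals mark matches to TGACGTCA (the full element), to its shorter form CGTCA, which lies inside the full element and so overlaps it, or to the E-box CACGTG, searched on both strands.
Npy, chr6:49822460-49822709, plus strand: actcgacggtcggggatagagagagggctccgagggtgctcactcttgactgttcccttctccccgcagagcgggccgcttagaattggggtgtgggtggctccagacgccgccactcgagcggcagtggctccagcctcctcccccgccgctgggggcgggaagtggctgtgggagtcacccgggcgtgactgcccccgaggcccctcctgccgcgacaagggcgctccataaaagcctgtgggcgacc
Cck, chr9:121495695-121495944, minus strand: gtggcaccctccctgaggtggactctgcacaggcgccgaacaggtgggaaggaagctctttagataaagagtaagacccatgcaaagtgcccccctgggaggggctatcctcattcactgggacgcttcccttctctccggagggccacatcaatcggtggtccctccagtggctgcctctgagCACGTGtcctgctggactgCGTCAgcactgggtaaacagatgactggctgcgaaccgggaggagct
Sst, chr16:23890874-23890903, minus strand: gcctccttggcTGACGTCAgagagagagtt
Among 32851 promoter entries of the same length, 1.55% held TGACGTCA, 17.8% held CGTCA and 6.02% held CACGTG. The Sst match begins at position -48 from the RefSeq start. The Cck window held CGTCA at -47 and CACGTG at -66. The Npy window held none of these letters. The Vip window held CGTCA at -79, and the Tac1 window held it at -197 and -43 along with CACGTG, while those of Tac2 and Pdyn held none of the 3 motifs. CGTCA was thus in 4 of the 7 genes with an entry and CACGTG in Cck and Tac1. Penk, Pnoc and Crh have no entry in that table. A match describes letters and is no measurement of binding.

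The libraries held 2731 to 5252 nuclei after filtering, 32041 in all, with 21020159 to 43310978 unique molecular identifiers (UMIs) per library and a median of 4579 to 6438.5 UMIs per nucleus. Between libraries, 134 barcodes occurred more than once, and no pair of libraries agreed within sampling noise. Levels are given as CPM, the UMIs of a gene scaled to 1 common total of UMIs per library or cell type. Gsap was at 22.5, 23.0 and 22.3 CPM in WT 1, 2 and 3, at 19.8, 21.8 and 22.0 CPM in GKO 1, 2 and 3, at 19.9 CPM in J20;WT and at 21.1 CPM in J20;GKO. A 3′ tag outside the deleted exons checks nothing, so the knockout libraries are called here by their labels. Xist stood at 2135 to 2410 CPM in WT 1, GKO 1 and J20;GKO and at 1.68 to 3.00 in the other 5 libraries. The Y-linked genes Eif2s3y, Ddx3y, Uty and Kdm5d together had 49 to 119 UMIs in the former and 7113 to 13881 in the latter. By these genes the former came from females and the latter from males, so the 2 J20 mice differ in sex as well as in Gsap genotype. The deposited names carry 3 dates: WT 1 and GKO 1 share the first, J20;WT alone has the third, and the second is on the rest. WT 1 and GKO 1 are also the only females among the libraries without J20, so their date and sex cannot be told apart. GKO 1 stood lowest of all libraries for most peptides in interneurons, followed by WT 1, and for GKO against WT, Sst in Sst-like and Pvalb-like and Npy in Sst-like, Pvalb-like and Lamp5-like nuclei are given without it as well.

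Nuclei were clustered with the 10 genes left out, so no member defined a type. Of 2298 inhibitory nuclei, 1260 fell into 5 types named from other markers: Sst-like (376 nuclei, 6 or 7 of 7 markers raised in its clusters), Pvalb-like (329 nuclei, 4 to 7 of 8), Lamp5-like (273 nuclei, 6 to 8 of 8), Vip-like (153 nuclei, 7 of 7) and Cnr1-like (129 nuclei, 6 of 7). Among 13589 excitatory nuclei, 5574 were dentate granule-like (8 of 8 markers), 2628 CA1-like (5 of 7), 1047 CA3-like (7 of 7) and 424 subiculum- or cortex-like (7 of 9), and the other clusters kept numbers. Free RNA in the droplets adds UMIs to every nucleus, so the level in oligodendrocytes and microglia, 9339 nuclei of types not known for these peptides, is given for each gene as a background. Shares of nuclei with a UMI are given as counted and after thinning each nucleus to 1500 UMIs, because a granule-like nucleus had a median of 7805.5 UMIs and an oligodendrocyte or microglial nucleus 2128. The same number of free UMIs is a higher CPM in a shallow nucleus than in a deep one, so UMIs per nucleus are also given for some of the levels near this background. Levels between types were not tested, and ranges are over the 8 libraries. Where free RNA is subtracted, CPM is scaled to the UMIs left, so a level can rise and is compared only with others treated alike.

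**Figure D1:**
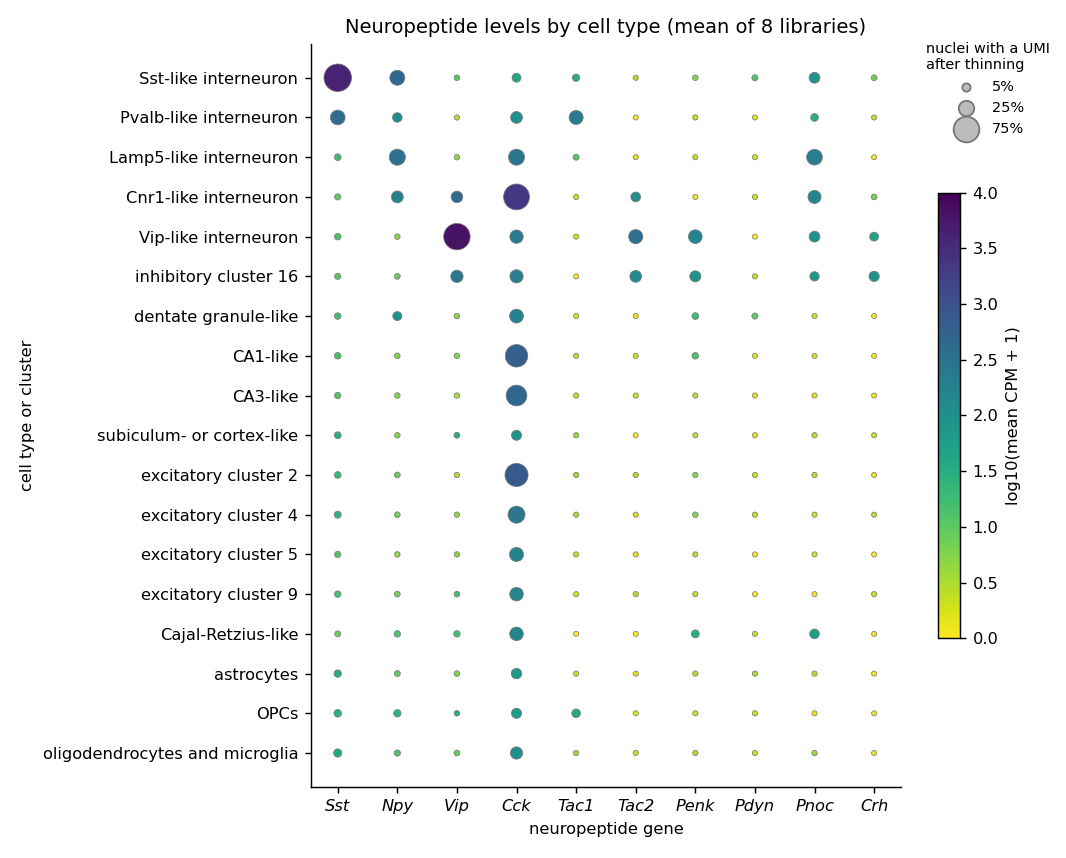
Mean level (colour, log10 of mean CPM + 1 over 8 libraries) and mean share of nuclei with a UMI after thinning (dot size) of the 10 neuropeptide genes (x axis) in 18 cell types or clusters (y axis). Sst, Vip and Cck each peak in a single interneuron type, Npy and Pnoc are spread over several, and Cck is also high in CA1-like, CA3-like and excitatory cluster 2 nuclei.

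Sst, the inhibitory peptide somatostatin, was highest in Sst-like interneurons, a type found without it. Its level there was 2499, 5050 and 4737 CPM in WT 1, 2 and 3, 1030, 3461 and 4308 CPM in GKO 1, 2 and 3, 5606 CPM in J20;WT and 6344 CPM in J20;GKO. GKO 1 and WT 1 were the lowest libraries and both J20 libraries the highest. Nuclei with an Sst UMI made up 96.2% on average (range 89.5 to 98.7%; 86.4% after thinning). Pvalb-like interneurons came next among named types at 431 ± 242 CPM (SD, n = 8), with a range of 88.3 to 802 CPM that lies below every Sst-like library. Within the Pvalb-like type, subcluster 5 stood at 674 ± 452 CPM and subcluster 4 at 281 ± 192 CPM, which overlap widely. In oligodendrocytes and microglia Sst was at 11.97 to 57.1 CPM, above granule-like (11.2 to 24.5 CPM) and CA3-like nuclei (3.15 to 16.2 CPM) on average. Per nucleus they had 0.0333 to 0.142 Sst UMIs, against 0.0981 to 0.209 in granule-like and 0.0795 to 0.337 in CA3-like nuclei, fewer in every library except J20;GKO for granule-like nuclei (0.142 against 0.139). Elsewhere among excitatory types single nuclei held most of the UMIs: subiculum- or cortex-like nuclei of GKO 1 had 88.1 CPM, with 57 of 60 UMIs in 1 nucleus, and excitatory cluster 4 of WT 1 had 58.0 CPM, with 72 of 104 UMIs in 1 nucleus.

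Npy, an inhibitory peptide that damps glutamate release, was shared by several interneuron types, and its level in oligodendrocytes and microglia was 2.13 to 37.5 CPM. In Sst-like nuclei it was at 248, 307 and 798 CPM in WT 1, 2 and 3, at 57.8, 372 and 311 CPM in GKO 1, 2 and 3, at 784 CPM in J20;WT and at 1111 CPM in J20;GKO. In Lamp5-like nuclei the values were 395, 399.7 and 382 CPM, then 58.7, 379.9 and 182 CPM, then 578 and 563 CPM in the same order. The Lamp5-like range (58.7 to 578 CPM) lies inside the Sst-like range (57.8 to 1111 CPM), and the Cnr1-like range (25.8 to 299 CPM, mean 179 ± 93.7) and the Pvalb-like range (6.16 to 218 CPM, mean 108 ± 77.7) overlap with both. A single Cnr1-like nucleus held most Npy UMIs in each of WT 1, WT 3, GKO 2, GKO 3 and J20;GKO. In J20;GKO it held 58 of 85, with 102 CPM left without it. The Pvalb-like maximum, in J20;WT, had 55 of 78 UMIs in 1 nucleus and was 66.8 CPM without it. By the share of nuclei with a UMI after thinning, Lamp5-like nuclei led with 27.5% against 23.4% in Sst-like nuclei. Vip-like nuclei lacked it, at means of 5.59 CPM in WT and 1.16 CPM in GKO libraries. Within Lamp5-like nuclei, subcluster 10 averaged 698 ± 463 CPM and subcluster 1 243 ± 129 CPM. Within Sst-like nuclei, subclusters 0 and 15 averaged 557 ± 446 and 658 ± 671 CPM and subcluster 17 53.8 ± 58.6 CPM, while Sst itself was at 4526, 3362 and 3779.5 CPM in the same 3 subclusters.

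Of the 365 Sst-like nuclei with an Sst UMI, 172 (47.1%) also had an Npy UMI, with 11.8% in GKO 1 and 78.9% in J20;GKO as the lowest and highest libraries. In Pvalb-like nuclei, 29.1% of nuclei with an Sst UMI had an Npy UMI against 7.92% of those without, although the nuclei with Sst had the lower median depth (12419 against 14125.5 UMIs). The Npy share was higher with Sst in each of the 8 libraries. For Tac1 the pooled shares were 48.8% with Sst and 41.1% without, but the libraries disagreed: the share was higher with Sst in GKO 1 (71.4% against 23.5%), J20;GKO (76.5% against 23.5%) and GKO 3, and lower in the other 5, as in WT 2 (14.3% against 25.8%).

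Vip, which relaxes vessels and marks interneurons that inhibit other interneurons, was at 2264, 6698 and 7284 CPM in Vip-like nuclei of WT 1, 2 and 3, at 2453, 4388 and 4593 CPM in GKO 1, 2 and 3, at 10683 CPM in J20;WT and at 13027 CPM in J20;GKO. The J20 libraries were the highest and the 2 libraries of the first date the lowest. In GKO 1 a single nucleus of 9 held 133 of 217 UMIs, and the level without it was 1081 CPM. Cnr1-like nuclei followed at 431 ± 302 CPM (6.00 to 874 CPM), but few of them carried it: in J20;GKO 1 nucleus of 14 held 247 of 248 UMIs, and in J20;WT 1 nucleus of 12 held all 35. Nuclei of the Cnr1-like type with a Vip UMI had an Npy UMI in 14.3% of cases (4 of 28) and those without in 42.6%, with a lower depth in the former (12076 against 17303 UMIs). Both J20 libraries went the other way, from 1 Vip nucleus in J20;WT and 2 in J20;GKO, 1 of which had Npy in each. Granule-like, CA1-like and CA3-like nuclei had mean Vip levels of 3.89, 4.68 and 2.26 CPM, against 8.38 CPM in oligodendrocytes and microglia.

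Cck, the precursor of cholecystokinin, was high in pyramidal-like nuclei as well as in interneurons. In Cnr1-like nuclei it was at 1324, 3458 and 1458 CPM in WT 1, 2 and 3, at 1041, 2177 and 3089 CPM in GKO 1, 2 and 3, at 3301 CPM in J20;WT and at 1896 CPM in J20;GKO, and 97.5% of these nuclei had a UMI. The order went on with excitatory cluster 2 (755 ± 287 CPM), CA1-like (608 ± 135 CPM) and CA3-like nuclei (483 ± 75.3 CPM), neighbours whose ranges overlap. Lamp5-like nuclei had 276 ± 126 CPM, Vip-like nuclei 229.9 ± 128 CPM, granule-like nuclei 167 ± 58.1 CPM, Pvalb-like nuclei 99.8 ± 34.8 CPM and Sst-like nuclei 44.0 ± 19.4 CPM. The background was high for this gene, at 113 ± 33.1 CPM (47.1 to 169 CPM) in oligodendrocytes and microglia. Per nucleus these had 0.131 to 0.346 Cck UMIs, against 0.263 to 0.923 in Sst-like and 1.03 to 2.06 in Pvalb-like nuclei. Granule-like nuclei had a UMI in 57.2% of cases, 19.6% after thinning, against 14.7% after thinning in oligodendrocytes and microglia.

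Tac1, the precursor of substance P, was led by Pvalb-like nuclei, at 76.9, 149 and 295 CPM in WT 1, 2 and 3, 59.6, 186 and 419 CPM in GKO 1, 2 and 3, 308 CPM in J20;WT and 241 CPM in J20;GKO. Both libraries of the first date were lowest, and in GKO 1, 1 nucleus held 18 of 29 UMIs. Oligodendrocyte precursors (OPCs) carried it too, at 37.2 ± 18.9 CPM and in 15.7% of nuclei (5.81% after thinning), whereas oligodendrocytes and microglia had 2.92 ± 1.67 CPM and 0.335% after thinning. The OPC range of 15.8 to 67.4 CPM lay above the whole range of 0.798 to 6.35 CPM in oligodendrocytes and microglia. Subcluster 4 of the Pvalb-like type, low in Sst and Npy, had 344 ± 223 CPM and subcluster 5 164 ± 93.5 CPM, with overlapping ranges. In Sst-like nuclei Tac1 averaged 28.9 ± 23.2 CPM, of which subcluster 17 had 114 ± 111 CPM.

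Tac2, which encodes neurokinin B, Penk, the enkephalin precursor, and Crh, the corticotropin releasing hormone, were all led by Vip-like nuclei among the named types. Tac2 was at 80.6, 246 and 557 CPM in WT 1, 2 and 3, 124, 229 and 181 CPM in GKO 1, 2 and 3, 1043 CPM in J20;WT and 281 CPM in J20;GKO. In WT 3, 1 nucleus held 45 of the 60 Tac2 UMIs, and the level without it was 162 CPM. The Cnr1-like range of Tac2, 0 to 224 CPM, overlapped with this one, and oligodendrocytes and microglia had 0 to 7.20 CPM.
Penk in Vip-like nuclei was at 61.4, 90.5 and 204 CPM in WT 1, 2 and 3, 67.8, 102 and 118 CPM in GKO 1, 2 and 3, 343 CPM in J20;WT and 275 CPM in J20;GKO, with both J20 libraries above the other 6. Of Vip-like nuclei with a Vip UMI, 51.1% had a Penk UMI and 30.4% a Tac2 UMI. Cajal-Retzius-like nuclei had 32.2 ± 21.5 CPM of Penk, from 0 to 8 UMIs per library, and CA1-like nuclei 13.3 ± 4.27 CPM, while oligodendrocytes and microglia had 0 to 4.69 CPM.
Crh was sparse, at 23.0, 38.8 and 46.5 CPM in Vip-like nuclei of WT 1, 2 and 3, 10.2 and 83.4 CPM in GKO 2 and 3, 153 CPM in J20;WT and 26.8 CPM in J20;GKO, from 2 to 24 UMIs each. GKO 1 had 0 UMIs in 9 nuclei, where 3 UMIs, the limit used here for a count of 0, would be 33.9 CPM and the exact Poisson upper bound is 41.7 CPM. Inhibitory cluster 16, with 57 nuclei, had 7 of 7 Vip-like markers raised but more markers of another type among its leading genes and stayed unnamed. It had 96.0 ± 86.2 CPM of Crh, 88.0 ± 83.8 CPM of Penk and 261 ± 415 CPM of Vip, from 0 to 72 UMIs per library. In granule-like, CA1-like and CA3-like nuclei Crh averaged 0.113, 0.0835 and 0.160 CPM, and oligodendrocytes and microglia had 0 to 0.917 CPM.

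Pnoc, the nociceptin precursor, was spread over several interneuron types. In Lamp5-like nuclei it was at 111, 176 and 241 CPM in WT 1, 2 and 3, 68.0, 162 and 214 CPM in GKO 1, 2 and 3, 407 CPM in J20;WT and 300.3 CPM in J20;GKO. Cnr1-like (141 ± 60.3 CPM), Vip-like (89.6 ± 40.7 CPM) and Sst-like nuclei (83.9 ± 42.7 CPM) followed with overlapping ranges, and Pvalb-like nuclei had 27.7 ± 13.8 CPM. Cajal-Retzius-like nuclei had 51.3 ± 36.2 CPM from 1 to 11 UMIs per library. The background was 0.671 to 4.11 CPM. Of Lamp5-like nuclei with an Npy UMI, 83.4% had a Pnoc UMI, against 64.3% of those without Npy, with a higher depth in the former (11628 against 10610.5 UMIs). J20;WT went the other way (84.2% against 100%, where 6 nuclei lacked Npy), and WT 3 had 81.8% against 77.8%.
Pdyn, the dynorphin precursor, was low throughout. In granule-like nuclei it averaged 8.76 ± 3.42 CPM, with a range of 3.58 to 13.2 CPM above the 0 to 2.39 CPM of oligodendrocytes and microglia, and CA1-like and CA3-like nuclei averaged 0.514 and 0.436 CPM. The higher mean in Sst-like nuclei, 12.04 ± 17.7 CPM, rested on J20;WT, where 1 nucleus held all 21 UMIs of a level of 55.0 CPM. The other 7 libraries had 1.40 to 13.1 CPM there, from 1 to 6 UMIs.

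Over 14 named neuronal and glial types and 11620 genes, the genes whose mean log2(CPM + 1) was most like that of each member were listed by Pearson's r, a description over types that share libraries. Of the genes named, Crhbp, Htr3a, Pvalb, Nxph1, Kcnmb2 and Stxbp6 were also among the markers used to name types. For Sst the nearest were Crhbp (0.94), which encodes a Crh-binding protein, Gna14 (0.91) and 9630002D21Rik (0.85). For Vip they included Tac2 (0.91) and Htr3a (0.91), a serotonin receptor channel. Tac2 was most like Htr3a (0.96), Abcb5 (0.94) and Gm39185 (0.92), and the genes most like Crh included Grpr (0.96) and Npffr1 (0.87). Tac1 was closest to 4930470O06Rik (0.87), Pvalb (0.85), the calcium buffer parvalbumin, and Nxph1 (0.85). Npy came near St8sia4 (0.88), Edaradd (0.87) and Unc5d (0.85), and Pnoc near Clpp (0.92), Dlx6 (0.91) and Kcnmb2 (0.91). Likeness was lower for Cck (Selenow 0.82, Bmp3 0.80, Tnfaip8l3 0.77), Penk (Zc3h15 0.81, Scn7a 0.81, Gm38134 0.79) and Pdyn (Luc7l 0.74, Stxbp6 0.72, Txnrd1 0.71).

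**Figure D2:**
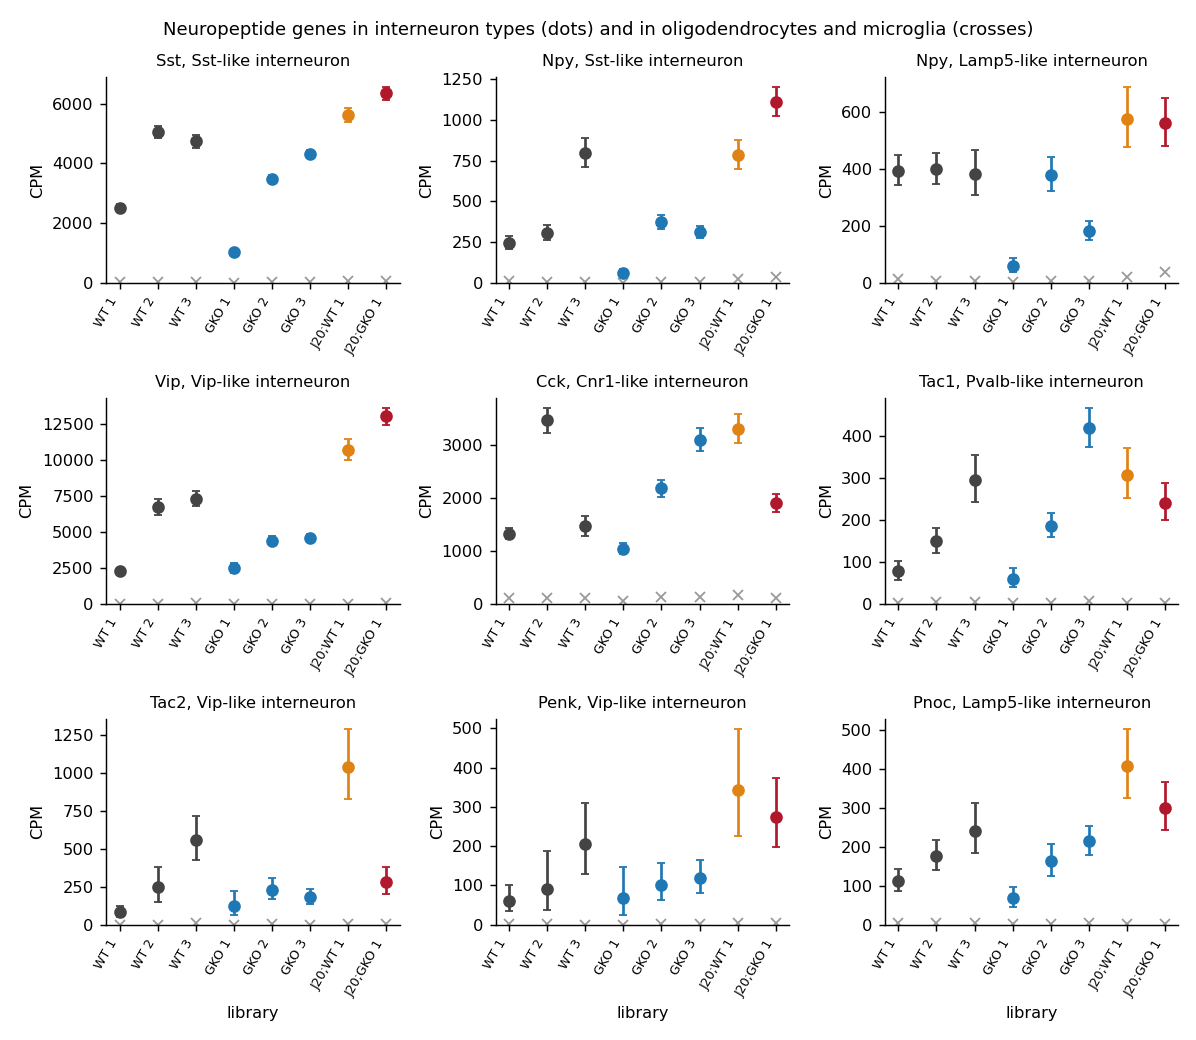
Level in CPM (y axis) of neuropeptide genes in the interneuron type where each was followed, per library (x axis; dots with exact Poisson 95% intervals, counting error only), with oligodendrocytes and microglia of the same library as crosses. GKO 1 is the lowest library in 6 of 9 panels and next to the lowest, after WT 1, in Vip, Tac2 and Penk, and the J20 libraries are above the other 6 for Sst in Sst-like, Vip and Penk in Vip-like, and Npy and Pnoc in Lamp5-like nuclei. Of all genes tested in Sst-like, Vip-like and Lamp5-like nuclei, 6.84, 5.79 and 5.72% had both J20 libraries above the other 6.

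Whether loss of Gsap changed the peptides was asked by comparing GKO with WT at 7 months, with UMIs summed per mouse and type and edgeR's quasi-likelihood test over all genes of each of 14 types (both neuronal classes and the types or clusters within them). A gene was called where its adjusted p was below 0.05 and its log2 fold change exceeded 0.3 in either direction. No neuropeptide gene was called in 59 tests, none had an unadjusted p under 0.05, and DESeq2 called none either. The background was 0.0%, since none of 149054 gene tests over all types was called. Fold changes were below 0 in 48 of the 59 tests, with a median of -0.19, while the median over all genes was -0.00035 to 0.013 by type. The tests are not independent, since they share the same mice and the classes contain the types. Receptor and processing genes of the peptides, described below, leaned the same way, with 86 of 132 and 163 of 224 tests below 0.

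GKO 1, the lowest library for most interneuron peptides, weighs on the GKO means. Sst in Sst-like nuclei averaged 4095 ± 1392 CPM in WT and 2933 ± 1702 CPM in GKO libraries (n = 3 each), a log2 fold change of -0.46 ± 0.41 (SE, adjusted p = 0.999), and GKO averaged 3884 CPM without GKO 1. Within dates, WT 1 had 2499 against 1030 CPM in GKO 1, and the second date had means of 4894 against 3884 CPM. Npy in Sst-like nuclei averaged 451 ± 302 CPM in WT and 247 ± 166 CPM in GKO, a log2 fold change of -0.79 ± 0.73 that was not called (adjusted p = 0.999), and 341 CPM in GKO without GKO 1, where 1 nucleus held 13 of the 22 Npy UMIs.
In Lamp5-like nuclei Npy did not overlap between groups, at 382 to 399.7 CPM in WT and 58.7 to 379.9 CPM in GKO, with GKO 2 just under the lowest WT library. All GKO libraries lay below all WT libraries for 3.79% of the genes tested in that type. The log2 fold change was -0.92 ± 0.49 (adjusted p = 0.9997). It ran from -1.63 to -0.52 when any 1 library was left out, and was -0.52 without GKO 1. Sst in the same nuclei was at 16.6 to 37.6 CPM in WT and 2.35 to 4.84 CPM in GKO, too low for the filter on low counts. Without that filter it was called, with a log2 fold change of -2.79 ± 0.65 (edgeR, adjusted p = 0.0269, where 0.0696% of genes were called), as was Penk in excitatory cluster 2, at 0 to 0.88 CPM in WT and 2.36 to 10.7 CPM in GKO (2.91 ± 0.65, adjusted p = 0.0449, where 0.0178% were called). In oligodendrocytes and microglia Sst was at 11.97 to 57.1 CPM and Penk at 0 to 4.69 CPM. In WT 1, 1 nucleus held 12 of the 21 Sst UMIs of the Lamp5-like type, and in GKO 2, 1 nucleus held 13 of the 23 Penk UMIs of excitatory cluster 2.

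Same-numbered WT and GKO libraries deviated together, by the check given with the processing, but over all nuclei so did libraries of different number from the second date. That check cannot decide how WT 2, WT 3, GKO 2 and GKO 3 pair. With the replicate number as a block, Sst in Pvalb-like nuclei was called at a log2 fold change of -1.17 ± 0.17 (edgeR, adjusted p = 0.00963) and Npy in the same nuclei at -1.30 ± 0.21 (adjusted p = 0.0236), where 0.0328% of genes of that type were called. Without GKO 1 the blocked changes were -0.99 ± 0.17 for Sst and -1.26 ± 0.22 for Npy (adjusted p = 0.0022 for both, where 0.232% of genes were called), a fit added after the data were seen that leaves 1 residual degree of freedom and so draws its spread mostly from other genes. Without the block the same changes were -1.0 ± 0.64 and -1.06 ± 1.05 (adjusted p = 0.9997 for both). Sst was at 302, 477 and 707 CPM in WT 1, 2 and 3 and at 88.3, 188 and 439 CPM in GKO 1, 2 and 3, lower in GKO within each number. In GKO 1, 1 of 24 Pvalb-like nuclei held 29 of the 43 Sst UMIs, and the level without it was 29.5 CPM. Npy was at 23.7, 155 and 186 CPM in WT and at 6.16, 45.9 and 103 CPM in GKO, again lower within each number while the groups overlap. The subclusters of this type differed in it. In subcluster 5 Sst was at 503, 849 and 1145 CPM in WT 1, 2 and 3 and at 19.0, 279 and 479 CPM in GKO 1, 2 and 3, whereas in subcluster 4 it was at 219, 49.2 and 466 CPM and at 210.0, 97.9 and 481 CPM. The subclusters were not tested, nor was the difference between them.
In granule-like nuclei the WT and GKO ranges of Cck, Pdyn, Penk and Npy overlapped. Cck was at 207, 183 and 228 CPM in WT and 156, 182 and 219.9 CPM in GKO (-0.13 ± 0.12), Pdyn at 11.9, 11.1 and 9.54 against 13.2, 7.86 and 8.43 CPM (-0.15 ± 0.23), Penk at 3.42, 5.08 and 4.77 against 5.15, 3.46 and 4.14 CPM (-0.04 ± 0.27) and Npy at 2.19, 3.08 and 2.98 against 2.75, 3.06 and 2.61 CPM (0.06 ± 0.29). In Cnr1-like nuclei Cck had a fold change of 0.01 ± 0.40, in CA1-like nuclei -0.13 ± 0.22. Tac1 in Pvalb-like nuclei was at 0.46 ± 0.85, and Pnoc in Lamp5-like nuclei at -0.16 ± 0.32 on the log2 scale.

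The 23 receptors of these peptides and 17 genes that process and release them gave 356 gene and type tests in GKO against WT, 132 of receptors and 224 of processing genes. None was called by edgeR or by DESeq2, and an unadjusted p under 0.05 occurred in 3 receptor and 9 processing tests. The median log2 fold change was -0.09 for receptors and -0.11 for processing genes. The 63 tests of 24 further peptide genes gave no call by either tool and 2 unadjusted p-values under 0.05.

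The J20 transgene was examined in all 8 libraries, with Gsap genotype in the model, as 2 J20 against 6 other libraries. Over 66 neuropeptide tests, 5 were called, 3 higher and 2 lower, where 0.649% of all 157720 gene tests were called. Granule-like nuclei held 3 of the 5: there Penk rose, and Cck and Pdyn fell, with 6.15% of all genes called in that type. Of the 10 members, 6 passed the filter on low counts in granule-like nuclei (Cck, Npy, Pdyn, Penk, Sst and Vip). The other calls were Npy in CA3-like nuclei and Penk in the excitatory class, which contains the granule-like nuclei.

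**Figure D3:**
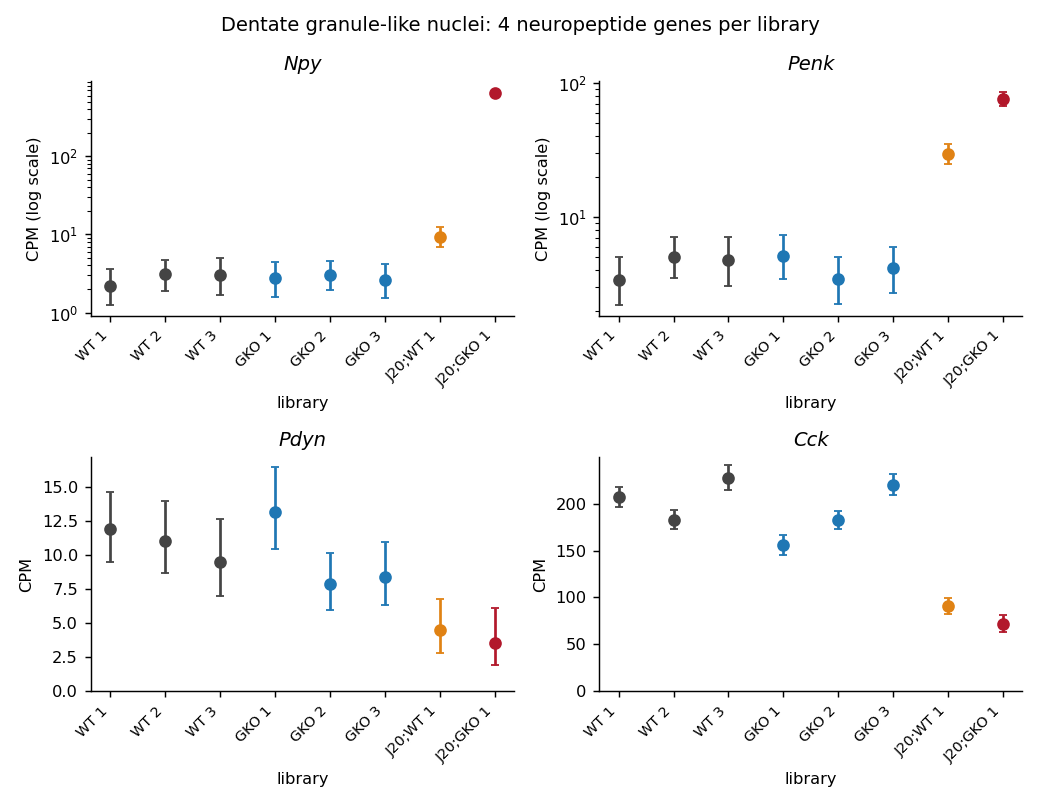
Level in CPM of Npy, Penk (log axes), Pdyn and Cck (linear axes) in dentate granule-like nuclei of each library (x axis), with exact Poisson 95% intervals that cover counting error only. The 6 libraries without J20 lie together, J20;GKO stands at 646 CPM for Npy, and for each of the 4 genes both J20 libraries lie outside the range of the other 6. Of all genes tested in these nuclei, both J20 libraries lay above the other 6 for 15.1% and below for 8.15%. Sst and Vip, also tested there, are not drawn.

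Penk in granule-like nuclei was at 3.42, 5.08 and 4.77 CPM in WT 1, 2 and 3, 5.15, 3.46 and 4.14 CPM in GKO 1, 2 and 3, 29.6 CPM in J20;WT and 76.5 CPM in J20;GKO. Both J20 libraries lay far above the others, and the log2 fold change was 3.46 ± 0.26 (SE, edgeR, adjusted p = 3.7e-05). A Penk UMI was found in 13.6% of 774 granule-like nuclei of J20;WT and 32.3% of 402 in J20;GKO (4.46 and 9.71% after thinning), against 2.27 to 3.83% in the other 6 libraries. Fold changes ran from 2.65 to 4.12 when any 1 library was left out, with the call kept each time, though without a J20 library the J20 arm is 1 mouse whose spread is assumed to be that of the other groups. Oligodendrocytes and microglia had at most 4.69 CPM.

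Npy in the same nuclei was at 2.19, 3.08 and 2.98 CPM in WT 1, 2 and 3, 2.75, 3.06 and 2.61 CPM in GKO 1, 2 and 3, 9.39 CPM in J20;WT and 646 CPM in J20;GKO. J20;GKO stood far apart, and J20;WT also lay above the other 6, as both J20 libraries did for 15.1% of the genes tested in that type (both lay below for 8.15%). The log2 fold change of 5.97 ± 1.2 missed the threshold (adjusted p = 0.0548). Over the alternatives the adjusted p ran from 2.9e-14 to 0.147, and it passed in 6 of them, among them without J20;WT (7.78, adjusted p = 2.9e-12) and without J20;GKO (1.68, adjusted p = 0.0174), fits in which the lone J20 library is assumed to vary like the other groups.
In J20;GKO, 315 of 402 granule-like nuclei (78.4%, exact interval 74.0 to 82.3%; 48.9% after thinning) had an Npy UMI, 180 had 5 or more, and the median was 4. In each of the other libraries, J20;WT included, at least 95.5% of granule-like nuclei had none. The UMIs were spread over most nuclei, and the top nucleus held 52 of 2347 UMIs. The 8 GABAergic markers summed to 102 CPM in granule-like nuclei of J20;GKO, the lowest of a range that reached 156 CPM, with no marker at 0, against 7998 to 10119.6 CPM in the named interneurons. The 8 granule markers summed to 2449 CPM in J20;GKO and 2508 to 3240 CPM elsewhere, but among them Calb1 was at 68.2 CPM in J20;WT and 50.6 CPM in J20;GKO against 118 to 148 CPM, and Dsp at 17.4 and 11.6 CPM against 42.1 to 60.3 CPM. C1ql2 lay the other way, at 292 and 246 CPM against 126 to 201 CPM. In J20;WT alone Stxbp6 (1255 CPM) and Trpc6 (699 CPM) were above the 798 to 1005 and 284 to 457 CPM of the libraries without J20, and in J20;GKO alone Prox1 (183 CPM) and Lct (24.2 CPM) were below 237 to 278 and 43.4 to 61.4 CPM. Their part in the peptide results was not tested. The largest cluster of granule nuclei held 62.2% of them in J20;GKO and 57.4 to 63.1% elsewhere.

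**Figure D4:**
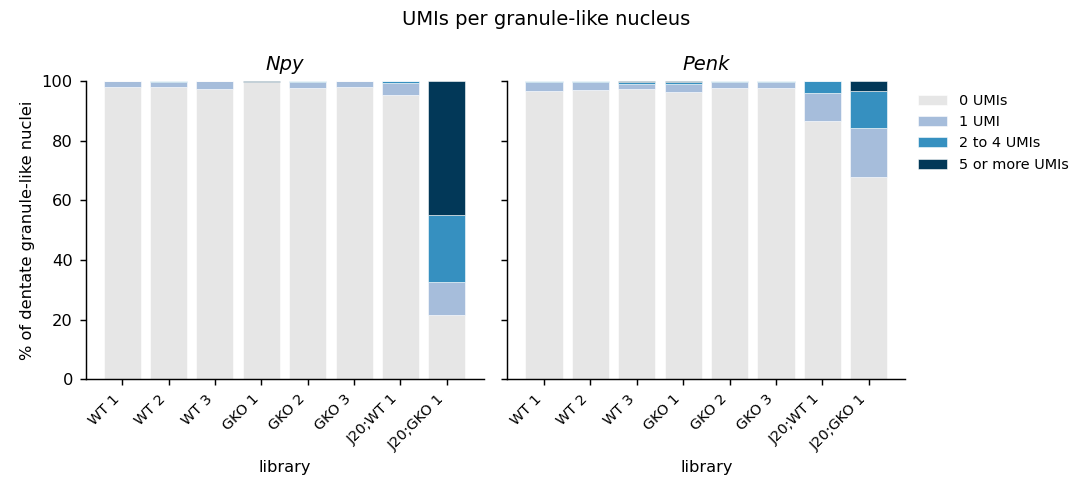
Share of dentate granule-like nuclei (y axis, %) with 0, 1, 2 to 4 and 5 or more UMIs of Npy (left) and Penk (right) in each library (x axis). For Npy, 21.6% of J20;GKO nuclei have none and 44.8% have 5 or more, and the other 7 libraries have 95.5 to 99.6% without a UMI; for Penk the share without a UMI is 86.4% in J20;WT and 67.7% in J20;GKO.

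Npy counts outside granule-like nuclei also differed in these mice. In oligodendrocytes and microglia, Npy was at 21.5 CPM in J20;WT and 37.5 CPM in J20;GKO, against 2.13 to 13.8 CPM in the other 6. Per nucleus, J20;WT had 0.0594 Npy UMIs in granule-like nuclei and 0.0439 in oligodendrocytes and microglia. Subtracting the latter left 12 of 46 UMIs, or 3.30 CPM, against 0 to 2.86 CPM in the libraries without J20 treated in the same way. In CA3-like nuclei Npy was at 2.77, 1.07 and 2.56 CPM in WT 1, 2 and 3, 1.35, 2.85 and 1.99 CPM in GKO 1, 2 and 3, 6.90 CPM in J20;WT and 16.6 CPM in J20;GKO. This was called (log2 fold change 2.40 ± 0.42, adjusted p = 0.0371, where 0.0807% of CA3 genes were called), but Npy passed the filter on low counts there only with the J20 libraries in the fit, the adjusted p missed the threshold when any of 7 of the 8 libraries was left out (WT 1 is the exception), and per nucleus the J20 libraries had 0.0982 and 0.370 UMIs, against 0.0439 and 0.103 in oligodendrocytes and microglia. In CA1-like nuclei it was at 0.750 to 3.74 CPM in the 6 libraries, 2.80 CPM in J20;WT and 19.5 CPM in J20;GKO, which was not called (1.94 ± 0.53, adjusted p = 0.216). That fold change ran from 0.05 to 2.89 when any 1 library was left out, with 2.89 without J20;WT.

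Cck in granule-like nuclei was at 90.7 CPM in J20;WT and 71.5 CPM in J20;GKO, below the 156 to 228 CPM of the other 6 libraries, and fell by 1.35 ± 0.14 on the log2 scale (edgeR, adjusted p = 0.000195). A Cck UMI was found in 38.2 and 36.1% of granule-like nuclei of the 2 J20 libraries and in 53.4 to 69.8% in the others. The call held without any 1 library, with fold changes of -1.43 to -1.28. The same 2 libraries had 169 CPM (J20;WT) and 115 CPM (J20;GKO) in oligodendrocytes and microglia, but per nucleus 0.346 and 0.315 UMIs there against 0.574 and 0.647 in granule-like nuclei. With that number subtracted, granule-like Cck was at 48.4 CPM in each J20 library and 183 to 252 CPM in the other 6 (log2 fold change -2.22, adjusted p = 0.000225). These CPM are scaled to the UMIs left after subtraction, so they are not on the scale of the values before it. In CA1-like nuclei Cck did not stand out, at 638 and 509 CPM against 366 to 751 CPM, nor in CA3-like nuclei, at 511 and 527 CPM against 304 to 535 CPM.
Pdyn in granule-like nuclei was at 4.49 CPM in J20;WT and 3.58 CPM in J20;GKO, from 22 and 13 UMIs, below the 7.86 to 13.2 CPM of the other libraries. It fell by 1.43 ± 0.30 on the log2 scale (adjusted p = 0.0161). The call was lost without J20;WT (adjusted p = 0.0738) and without J20;GKO (adjusted p = 0.0912), with a fold change of -1.50 and -1.37. In the excitatory class, Penk was at 14.0 and 22.0 CPM in the J20 libraries against 3.72 to 7.31 CPM (1.56 ± 0.22, adjusted p = 0.0194, where 0.337% of genes were called), and the call was lost without J20;GKO (1.26, adjusted p = 0.187) or GKO 2 (1.61, adjusted p = 0.0551). The class includes the granule-like nuclei, and its other types tested for Penk were not called. CA1-like nuclei were at 12.3 and 6.57 CPM in J20;WT and J20;GKO against 10.2 to 20.1 CPM (-0.70 ± 0.27, adjusted p = 0.368), excitatory cluster 4 at 2.24 and 0 CPM against 2.23 to 11.1 CPM (-2.02 ± 0.87, adjusted p = 0.642), and excitatory cluster 2 at 12.5 and 4.31 CPM against 0 to 10.7 CPM (1.25 ± 1.04, adjusted p = 0.703). Sst in granule-like nuclei, at 24.5 and 15.4 CPM in the J20 libraries and 11.2 to 18.9 CPM in the others, and Vip, at 7.15 and 7.15 CPM against 0.515 to 5.48 CPM, were not called.

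No neuropeptide gene was called in Sst-like, Pvalb-like, Lamp5-like or Cnr1-like interneurons of J20 mice by edgeR or DESeq2, with 1, 1, 1 and 0 unadjusted p-values under 0.05. All fold changes were above 0 there, in 5, 5, 4 and 5 tests, while the median over all genes was -0.022, -0.00998, -0.016 and -0.022. Sst in Sst-like nuclei had a log2 fold change of 0.77 ± 0.38 (adjusted p = 0.685) and Npy 1.52 ± 0.70 (adjusted p = 0.708), and with GKO 1 left out the remaining libraries without J20 averaged 4011 CPM of Sst and 407 CPM of Npy, against 5975 and 948 CPM in J20. Pnoc in Lamp5-like nuclei was at 1.11 ± 0.29 (adjusted p = 0.224), its J20 libraries at 407 and 300.3 CPM against 68.0 to 241 CPM. For the Vip-like type, which has 9 nuclei in GKO 1 and was tested only after the data were seen, Penk had 1.53 ± 0.34 (adjusted p = 0.208), Vip 1.41 ± 0.41 (adjusted p = 0.354) and Tac2 1.33 ± 0.60 (adjusted p = 0.632). Vip and Penk there were higher in both J20 libraries than in the other 6, as were 5.79% of the genes tested in that type. Cck was higher in J20 than in all 6 other libraries in Sst-like (68.1 and 65.4 against 13.1 to 52.5 CPM), Pvalb-like (139.9 and 140.3 against 53.4 to 120.0 CPM) and Lamp5-like nuclei (341 and 479 against 98.5 to 334 CPM), none of them called. Both J20 libraries lay above the other 6 for 6.84, 6.46 and 5.72% of the genes tested in these types. With free RNA subtracted the ranges of Cck met or overlapped in Sst-like (35.7 and 52.2 against 6.81 to 35.6 CPM) and Lamp5-like nuclei (369.97 and 547 against 104 to 376 CPM) but not in Pvalb-like nuclei (128 and 140.3 against 45.6 to 116 CPM). The Cck level in oligodendrocytes and microglia ran from 47.1 to 169 CPM, with J20;WT the highest.

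**Figure D5:**
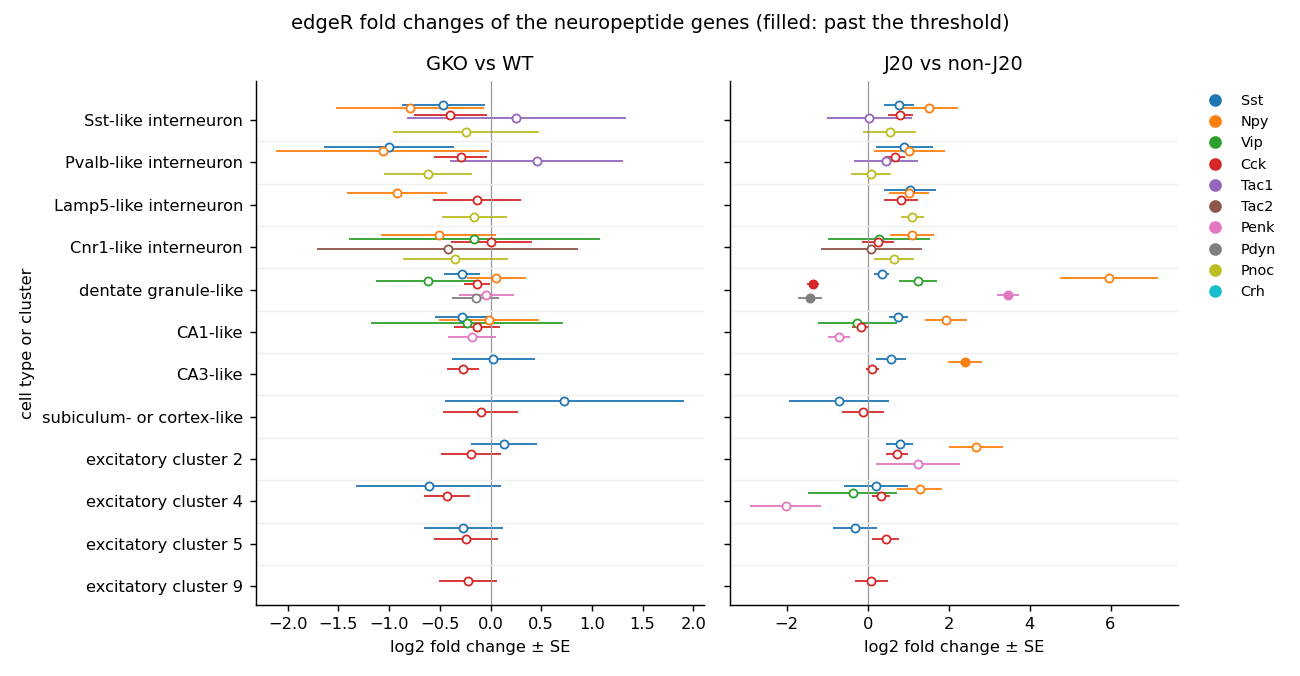
Log2 fold change ± SE (x axis) of each neuropeptide gene that passed the filter on low counts, by cell type or cluster (y axis), for GKO against WT (left) and J20 against the libraries without J20 (right, a wider scale). Filled points passed the threshold: none on the left, and on the right Cck, Pdyn and Penk in granule-like and Npy in CA3-like nuclei; the 2 neuronal classes are not drawn.

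Among the 370 tests of receptor and processing genes, 10 were called in J20, 7 higher and 3 lower, where 0.649% of all tests were called. Granule-like nuclei held 6, and 6.15% of all genes were called in that type. Npy1r and Npy5r, receptors for Npy, fell by 0.93 ± 0.18 (adjusted p = 0.0113) and 0.91 ± 0.17 (adjusted p = 0.00857) on the log2 scale. Sstr1, a somatostatin receptor, rose by 0.90 ± 0.24 (adjusted p = 0.0460). Cadps2, which primes dense core vesicles, fell by 1.40 ± 0.30 (adjusted p = 0.0287), with a fold change of -2.20 without J20;WT and -0.85 without J20;GKO. Pcsk1n, the proSAAS peptide that inhibits a prohormone convertase, rose by 0.51 ± 0.10 (adjusted p = 0.0131), and Scg5, which assists another convertase and was named after its value was seen, rose by 0.47 ± 0.11 (adjusted p = 0.0285).
Pcsk1n rose further in the excitatory class (0.61 ± 0.10, adjusted p = 0.0389), in Sst-like interneurons (1.17 ± 0.21, adjusted p = 0.0325, where 0.0668% of genes were called) and in Lamp5-like interneurons (1.25 ± 0.23, adjusted p = 0.0397, where 0.0256% were called, and 0.78 without J20;WT). Scg2, a secretogranin of dense core vesicles, rose by 1.72 ± 0.14 in excitatory cluster 2 (adjusted p = 0.000189, where 0.213% were called), a cluster whose nuclei had a median of only 720.5 UMIs in J20;WT. The Scg2 call held without any 1 library. The Pcsk1n call in the excitatory class was lost without each of the 8 libraries, and those of Pcsk1n, Scg5, Cadps2 and Sstr1 in the other types were lost in 1 to 6 of 8. Npy1r lost its call without J20;GKO and Npy5r without J20;WT. Of 84 tests of further peptide genes none was called by edgeR, with 16 unadjusted p-values under 0.05, the lowest adjusted p being that of Grp, gastrin-releasing peptide, in granule-like nuclei (2.54 ± 0.65, adjusted p = 0.0892). DESeq2 called 2, Grp in granule-like nuclei (adjusted p = 0.00719) and Nts, neurotensin, in the excitatory class (1.07, adjusted p = 0.0307), both named after their values were seen.

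J20;GKO against J20;WT compares 1 mouse with 1 mouse, which differ in sex and in library date too, and has no test. The intervals cover counting error only. In granule-like nuclei, the ratio of Npy was 68.7 (95% interval 51.3 to 94.1) from 2347 and 46 UMIs, and 254 (145 to 492) once the free RNA estimated from each library was subtracted, which left 2306 and 12 UMIs. The ratio of Penk was 2.58 (2.10 to 3.18) from 278 and 145 UMIs and 2.59 after subtraction. Cck had a ratio of 0.789 (0.674 to 0.921) and Pdyn of 0.796 (0.368 to 1.65), an interval that includes 1. In CA1-like nuclei the ratio was 6.95 (3.58 to 15.1) for Npy, 8.13 (2.50 to 41.9) for Tac1, from 27 UMIs, 21 of them in 1 nucleus, and 3 UMIs, and 0.534 (0.315 to 0.886) for Penk.
Among interneurons, Sst in Sst-like nuclei had a ratio of 1.13 (1.07 to 1.19), Npy of 1.42 (1.23 to 1.63), and in Lamp5-like nuclei Npy had 0.974 (0.770 to 1.24) and Pnoc 0.737 (0.545 to 0.998). Vip in Vip-like nuclei had 1.22 (1.12 to 1.32), Tac2 0.270 (0.181 to 0.396) and Crh 0.176 (0.0413 to 0.579), the last from 4 and 12 UMIs. Vip in Cnr1-like nuclei had 4.42 (3.09 to 6.49) and Pdyn in Sst-like nuclei 0.0990 (0.0189 to 0.332), where 1 nucleus held 247 of 248 and all of 21 UMIs, respectively, of the higher library. Sst in Pvalb-like nuclei had 1.79 (1.49 to 2.17), and Cck in Cnr1-like nuclei 0.574 (0.510 to 0.647). In the 3 WT mice alone the same Cck level ran from 1324 to 3458 CPM and Sst in Pvalb-like nuclei from 302 to 707 CPM, so differences of this size also occurred between mice of 1 genotype. Npy in granule-like nuclei ran from 2.19 to 3.08 CPM in those mice. They do not carry J20, so their range does not show the spread among J20 mice.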

How the data were processed

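Nuclei from 1 hippocampus sample per mouse were profiled on the 10X platform. The authors made the deposited UMI counts with Cell Ranger on mm10. The submitters' processing notes also name Seurat 3.0 and R 3.6.2. Of 33314 barcodes, 32041 were kept at 200 to 7500 genes and at most 5% mitochondrial UMIs, the authors' limits. Nuclei were clustered without the 10 genes (Seurat 5.3.0, sctransform 0.4.2, CCA integration, 3000 features, 30 components, 20 neighbours, resolution 0.8, and 0.8 and 0.1 within inhibitory and excitatory nuclei). A cluster was named "X-like" where its markers scored highest, at least 3 of them, and no fewer than were not raised, were raised (at least 2 times the median of the clusters, in at least 10% of nuclei), no type had more markers among its 10 leading genes, and at most 25% of its nuclei were doublet calls. This naming rule was completed after the clusters were seen. Scrublet (scanpy 1.11.5, expected share 6%) marked 1 and 0 nuclei in WT 1 and GKO 1 and so did not work there. Its calls were kept in the counts and left out in an alternative.

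UMIs were summed per mouse and type and tested with edgeR 4.0.16 (R 4.3.3; robust quasi-likelihood fit, TMM, filterByExpr), with Benjamini-Hochberg adjustment over all genes of a type that had at least 10 nuclei in each of the 6 libraries. DESeq2 1.42.0 was an alternative. The tests were tested on simulated data. Levels carry exact 95% intervals that cover counting error only. The members and lists were chosen with earlier results of these data known. All 10 members were named in every type, the receptor and processing genes were limited to the 6 largest called changes per comparison, and 3 genes most like each member were taken among those with at least 20 CPM in a type. For Vip and Crh, 1 of the 3 is not reported here. Same-numbered WT and GKO libraries deviated together over all nuclei (r = 0.79, 0.45 and 0.50 for numbers 1, 2 and 3), and in the inhibitory class r was 0.65, 0.02 and 0.64. The pairing comes from the replicate numbers in the sample titles. Deviations were taken from the mean of a group's 3 libraries and so sum to 0. Where WT 1 and GKO 1 deviate together, libraries 2 and 3 of both groups tend to do so too. These correlations therefore cannot decide how libraries 2 and 3 pair. Within the second date, WT 3 with GKO 2 (0.59) and WT 2 with GKO 3 (0.37) were also positive over all nuclei, the former above and the latter below both same-numbered pairs, and in the inhibitory class they were at 0.42 and -0.19, each below the same-numbered pairs of the same WT library.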

Additional observations from a re-analysis of the deposited data

Results flagged for a closer look

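The J20 libraries lay on opposite sides of the other 6 libraries for Cck, depending on the cell type. In granule-like nuclei the mean of the J20 libraries was 0.414 times that of the other 6 (81.1 against 195.9 CPM). In Sst-like nuclei it was 1.84 times as high (66.8 against 36.4 CPM), in Pvalb-like nuclei 1.62 times (140.1 against 86.4 CPM) and in Lamp5-like nuclei 1.77 times (409.8 against 231.7 CPM), with both J20 libraries above all others in each, as was so for 6.84, 6.46 and 5.72% of the genes tested in these types. In granule-like nuclei both lay below the others for 8.15% of genes. None of the 3 interneuron values was called by edgeR. The difference between types was not tested. Cck in oligodendrocytes and microglia was at 169 CPM in J20;WT and 115 CPM in J20;GKO, against 47.1 to 122 CPM in the other 6. With this free RNA subtracted per nucleus, the lower J20 library no longer lay above the highest other library in Lamp5-like nuclei (369.97 against 376 CPM), was level with it in Sst-like nuclei (35.7 against 35.6 CPM) and stayed above it in Pvalb-like nuclei (128 against 116 CPM).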

How the results depend on the processing

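For GKO against WT the count of called neuropeptide tests was 0, and 2 with no filter on low counts and 2 with the replicate number as a block in the paired fit, 0 to 0 when any 1 library was left out, and 0 in each other alternative computed over every type. The replicate block without GKO 1, fitted in Pvalb-like nuclei alone, called Sst and Npy there. For J20 the count of 5 became 11 with the date as a term (J20;WT is alone on its date, so that fit rests on J20;GKO), 10 with no filter, 7 with DESeq2 and 3 to 6 with 1 library left out, with 3 without GKO 2 and without J20;GKO. Of receptor and processing tests, 10 were called in J20, against 20 with DESeq2, 34 with the date term, 25 with no filter, 4 with free RNA subtracted and 6 to 12 with 1 library left out, the 6 without J20;GKO. Npy in CA3-like nuclei was also lost with DESeq2 (adjusted p = 0.0659) and without doublet calls (0.144). The J20;GKO to J20;WT ratio of Npy in granule-like nuclei went from 68.7 to 254.0 with free RNA subtracted, an alternative chosen after seeing the data. The type with the highest level was the same for all 10 genes in the alternatives on CPM and for 8 by thinned shares, where Npy led in Lamp5-like and Pdyn in granule-like nuclei.

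Several uncalled GKO fold changes turned in sign. Cck in Cnr1-like nuclei (0.01) went to -0.04 with the date term and ran from -0.32 to 0.60 with 1 library left out. Penk in granule-like nuclei (-0.04) went to 0.03 with free RNA subtracted and ran from -0.23 to 0.12. With 1 library left out, Cck in CA1-like nuclei ran from -0.34 to 0.10, Tac1 in Pvalb-like from -0.33 to 1.01, Pnoc in Lamp5-like from -0.52 to 0.16, and in granule-like nuclei Pdyn from -0.44 to 0.02 and Npy from -0.08 to 0.16. The causes were not tested. Over all alternatives of single genes, 422 values kept direction and side of the threshold, 58 lost the call, 13 gained it and 14 turned in sign. Low UMI counts limit Crh, Pdyn and Tac2, and the 9 Vip-like nuclei of GKO 1 limit that type.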

Other observations

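A few levels of these peptides outside their usual types rested on single nuclei. Vip in oligodendrocyte precursors of J20;WT was at 220.8 CPM, of which 76 of 78 UMIs lay in 1 nucleus that was called a doublet, and at 5.82 CPM without it. In Sst-like nuclei of GKO 3, 1 nucleus held 46 of 46 Vip UMIs. In granule-like nuclei of GKO 1, 1 nucleus held 44 of 65 Sst UMIs, and the level went from 11.2 to 3.63 CPM without it. Inhibitory cluster 7 held 7 nuclei in WT 3, of which 3 carried all 129 Npy and all 110 Sst UMIs (2673 and 2279 CPM). In subiculum- or cortex-like nuclei of WT 3, Vip was at 244 CPM, with 135 of 138 UMIs in 1 nucleus, and at 5.62 CPM without it. In the same type of GKO 1, 57 of 60 Sst UMIs lay in 1 nucleus (88.1 CPM, and 4.65 CPM without it).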
